A study of Mus musculus with 8 samples.

Results

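Oocyte programme genes are genes best known from the growing oocyte, and 10 of them were followed here in the testis: Figla, Nobox, Lhx8, Zp1, Zp2, Zp3, Gdf9, Bmp15, Oosp1 and Nlrp14. They were selected on measured values of these same arrays, namely their detection in testis and their signal in wild type against VRK1-deficient testes. Their levels and differences between genotypes are therefore a description, with no test. Members were found by the gene name written beside each probe, with Nalp14 accepted for Nlrp14. This gave 13 probes for 9 of the 10 genes, and Zp1 was not analysed here. The array held 41174 probes under 27670 names, which are gene symbols or, where none matched, the names in the array files.

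Gene expression was measured in testes of mice at postnatal day 8, and wild type was compared with VRK1-deficient animals. VRK1 is a serine/threonine kinase of proliferating cells, and the deficient mice carry a β-geo gene trap in intron 3 of Vrk1. Per the study's methods the line comes from 1 gene-trapped embryonic stem cell clone and was bred onto C57BL/6. Its results describe a hypomorph that still makes some full-length VRK1. Total RNA of the testis was labeled with Cy3 and hybridized to 1-color Agilent arrays, with 4 wild type and 4 VRK1-deficient replicates and 1 array per replicate. Replicates 1 and 2 of both genotypes lay on slide 1, and replicates 3 and 4 on slide 2. On each slide wild type took positions 1 and 2 and VRK1-deficient took positions 3 and 4, so array position and genotype cannot be told apart. With 4 arrays of each genotype, their number sets the precision.

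In the growing oocyte, the basic helix-loop-helix factor FIGLA and the homeodomain factors NOBOX and LHX8 act early in a transcriptional cascade. Genes that depend on it encode the zona pellucida glycoproteins, which form the coat of the egg, and the secreted factors GDF9 and BMP15, which act on the surrounding granulosa cells. Male germ cells share much of their early development with female germ cells, and transcripts of several of these genes are known from the testis.

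Values are log2 signals from which the array's 75th percentile was subtracted, unless a processed intensity is named. A probe was taken as detected on an array where the scanner software marked it as well above background. Levels of different probes are not comparable with each other, so each probe is compared only between arrays. The summed levels given below add signals of different probes, and each sum is likewise compared only between arrays. The largest term named for a sum is the probe that weighs most in it, and does not rank the transcripts. Vrk1 (probe A_51_P102339) had a log2 signal of -0.20, -0.11, 0.59 and 0.35 on wild type replicates 1 to 4. On VRK1-deficient replicates 1 to 4 it was -3.97, -3.68, -3.58 and -4.17, so each array carried the Vrk1 signal of its label. Whether this probe lies before or after the gene trap was not tested.

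The tissue label was checked against marker genes. All 8 pan germ cell markers, 10 Sertoli cell markers and 6 Leydig cell markers were well above background on all 8 arrays. Ddx3y, Eif2s3y and Kdm5d of the Y chromosome had a probe well above background on all 8 arrays. Their levels were not even: on wild type replicate 1 Eif2s3y had a log2 signal of -0.04 against 0.50 to 0.94 on the other arrays, and Kdm5d -2.73 against -2.17 to -1.91. Ddx3y was at -0.28 there and between -0.33 and 0.56 elsewhere. Of 4 Xist probes, 1 was so on 1 array, which was wild type replicate 2, and 3 were so on no array.

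Wild type replicate 1 stood apart from the other wild type arrays. Its log2 signals, over 26955 probes, correlated more closely with the VRK1-deficient arrays (0.987 to 0.990) than with its own group (0.970 to 0.986), as a description across probes with no p. Several results below rest on this array, and most differences and counts of called genes are given with and without it.

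The 9 genes with a probe fell into sets that behaved differently across the arrays. Figla, Nobox, Lhx8, Zp3, Gdf9 and Nlrp14 were detected on 4 or more of the 8 arrays by at least 1 probe, and all of these except Figla on all 8. Zp2 and Oosp1 were well above background on 1 array, wild type replicate 1. Bmp15 was not well above background on any array.

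**Figure D1:**
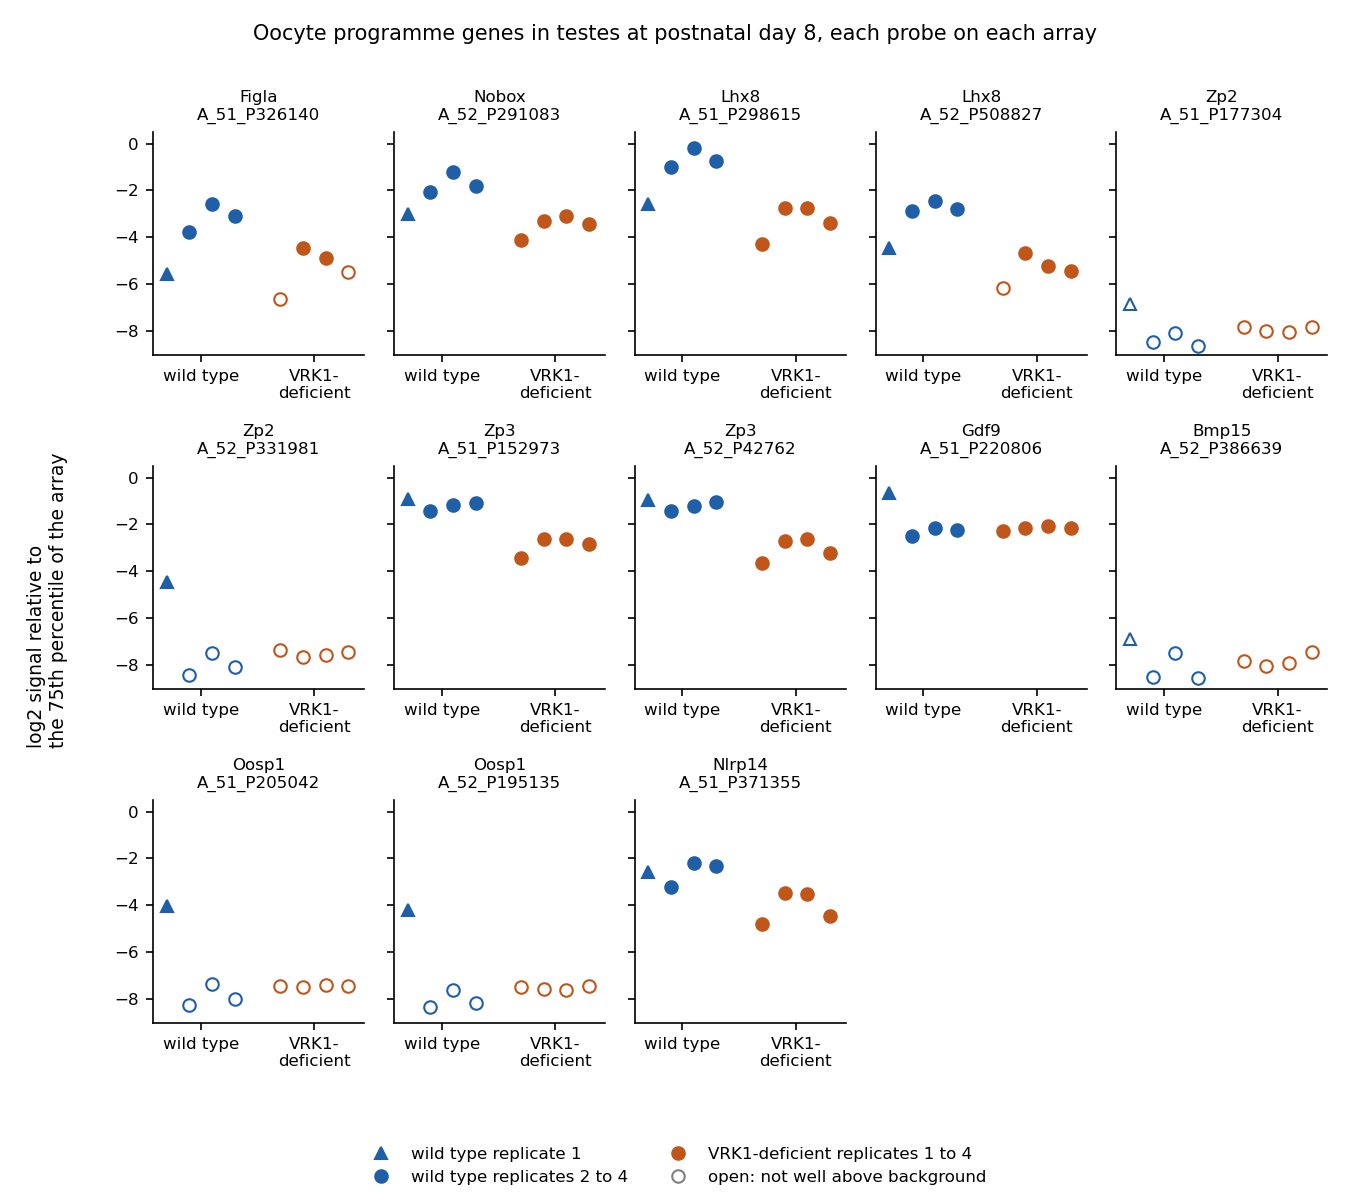
Each panel plots 1 of the 13 probes as log2 signal (relative to the array's 75th percentile) on 4 wild type (blue) and 4 VRK1-deficient (orange) arrays in replicate order. The triangle is wild type replicate 1, and open symbols were not well above background. Lhx8, Nobox, Zp3 and Nlrp14 lay lower on every VRK1-deficient array than on any wild type array, whereas Zp2, Oosp1 and Gdf9 were high on wild type replicate 1 alone.

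Of the transcription factors, Figla (probe A_51_P326140, NM_012013, chromosome 6 from 86095987 to 86096046 in build mm7) had log2 signals of -5.57, -3.77, -2.56 and -3.10 on wild type replicates 1 to 4. On VRK1-deficient replicates 1 to 4 they were -6.61, -4.46, -4.90 and -5.46. It was well above background on 4 wild type arrays and on VRK1-deficient replicates 2 and 3. The genotypes overlapped through wild type replicate 1, whose signal lay below 3 of the VRK1-deficient arrays. The wild type mean was -3.75 ± 1.31 (SD, n = 4) and the VRK1-deficient mean -5.36 ± 0.93 (SD, n = 4), a difference of -1.61. Without wild type replicate 1 the wild type mean was -3.14 ± 0.61 (SD, n = 3), the difference was -2.22, and no arrays overlapped. On slide 1 the difference was -0.87 and on slide 2 it was -2.35. The VRK1-deficient mean includes 2 arrays, replicates 1 and 4, on which Figla was not well above background. In processed intensity, which is linear and not scaled between arrays, Figla gave 14.1, 62.6, 109 and 88.6 on the wild type arrays. On the VRK1-deficient arrays it gave 7.42, 33.8, 19.1 and 12.5, so 3 wild type arrays stood above all the rest on that scale too. In these bulk samples, fewer cells of a type and less RNA per cell cannot be told apart.

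Nobox encodes a homeobox factor of primordial and growing follicles. Its probe (A_52_P291083, NM_130869, chromosome 6 from 43345260 to 43345319) had log2 signals of -3.01, -2.08, -1.20 and -1.81 on wild type replicates 1 to 4. The signals on VRK1-deficient replicates 1 to 4 were -4.11, -3.31, -3.11 and -3.42. Every VRK1-deficient array lay below every wild type array, and wild type replicate 1, the lowest of its group, came closest to the VRK1-deficient ones. The difference between the means was -1.46, with -1.16 on slide 1 and -1.76 on slide 2. It became -1.79 without wild type replicate 1.

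Lhx8 encodes a LIM homeodomain factor, and 2 probes that share no sequence measured it. The first (A_51_P298615, AK165733, chromosome 3 from 154214886 to 154214945) had log2 signals of -2.59, -1.02, -0.19 and -0.73 on wild type replicates 1 to 4. VRK1-deficient replicates 1 to 4 had -4.26, -2.77, -2.77 and -3.37. Wild type replicate 1 lay just above the highest VRK1-deficient array, and the other wild type arrays lay well above all of them. The wild type mean was -1.13 ± 1.03 (SD, n = 4) and the VRK1-deficient mean -3.29 ± 0.71 (SD, n = 4), a 4.47-fold lower signal. Its difference of -2.16 became -2.64 without wild type replicate 1, and was -1.71 on slide 1 and -2.61 on slide 2. The second probe (A_52_P508827, NM_010713, chromosome 3 from 154215364 to 154215423) had log2 signals of -4.45, -2.89, -2.46 and -2.77 on wild type replicates 1 to 4. VRK1-deficient replicates 1 to 4 had -6.17, -4.65, -5.22 and -5.46. The order of the wild type arrays was that of the first probe, and the difference was -2.23, or -2.67 without wild type replicate 1. It was well above background on all arrays but VRK1-deficient replicate 1, and its arrays did not overlap between genotypes either.

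Zp3 encodes the zona pellucida glycoprotein known as a sperm receptor. Its probe A_52_P42762 (NM_011776, chromosome 5 from 134959691 to 134959750) had log2 signals of -0.94, -1.43, -1.21 and -1.04 on wild type replicates 1 to 4. The VRK1-deficient arrays had -3.66, -2.72, -2.60 and -3.22 in the same order. The wild type arrays lay close together, wild type replicate 1 was the highest of them, and no VRK1-deficient array came near. The wild type mean was -1.15 ± 0.21 (SD, n = 4) and the VRK1-deficient mean -3.05 ± 0.49 (SD, n = 4), a 3.72-fold lower signal. Its difference of -1.90 became -1.83 without wild type replicate 1, and was -2.01 on slide 1 and -1.79 on slide 2. In processed intensity the same probe gave 349, 316, 277 and 371 on the wild type arrays. On the VRK1-deficient arrays it gave 57.2, 113, 94.1 and 58.9.

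The second Zp3 probe, A_51_P152973, had a difference of -1.73, with wild type signals between -1.43 and -0.92 and VRK1-deficient signals between -3.44 and -2.61. These probes are not independent measures, because they share 30 of their 60 bases. Both are given with the shared bases in capitals, since this overlap bears on how their likeness is read. A_51_P152973 is placed at chr5:134958870-134959720, a span of 851 bases, and A_52_P42762 at chr5:134959691-134959750, both on the plus strand of mm7.
A_51_P152973: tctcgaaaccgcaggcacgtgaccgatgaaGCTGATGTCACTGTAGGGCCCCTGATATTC
A_52_P42762: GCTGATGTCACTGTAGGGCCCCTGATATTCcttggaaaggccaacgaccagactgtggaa

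Zp2, which encodes another glycoprotein of the same coat, did not follow Zp3. Its probe A_52_P331981 (NM_011775) had a log2 signal of -4.44 on wild type replicate 1, where it was well above background. On the other 7 arrays it lay between -8.41 and -7.37 and was not well above background. The processed intensity was 30.9 on wild type replicate 1 and between 2.49 and 4.37 elsewhere. The other Zp2 probe, A_51_P177304, was also highest on wild type replicate 1, at -6.85 against -8.64 to -7.81 on the remaining arrays, but it was not well above background there or anywhere. No fold between genotypes is given, since the VRK1-deficient arrays gave no signal above background and the wild type mean lay under that limit. The 2 probes, printed because they disagree on detection, share no stretch of sequence and lie on the minus strand of mm7, at chr7:116058035-116058182 and chr7:116057838-116057994.
A_51_P177304: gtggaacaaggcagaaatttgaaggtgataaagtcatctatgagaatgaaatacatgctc
A_52_P331981: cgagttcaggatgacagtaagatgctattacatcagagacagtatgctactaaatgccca

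Gdf9, a ligand of the TGF-β family secreted by oocytes, was detected on all 8 arrays. Its probe (A_51_P220806, NM_008110, chromosome 11 from 53394562 to 53394621) had log2 signals of -0.67, -2.50, -2.16 and -2.24 on wild type replicates 1 to 4. The VRK1-deficient arrays gave -2.28, -2.15, -2.07 and -2.14. In processed intensity it gave 422 on wild type replicate 1, 143 to 162 on the other wild type arrays and 125 to 167 on the VRK1-deficient ones. Wild type replicate 1 lay 1.40 above the highest of the other 7 arrays, and among these other arrays VRK1-deficient replicate 1 lay within the wild type range and the remaining VRK1-deficient arrays above it. The wild type mean was -1.89 ± 0.83 (SD, n = 4) and the VRK1-deficient mean -2.16 ± 0.09 (SD, n = 4). Their difference of -0.27 turned to 0.14 without wild type replicate 1. On slide 1, which holds that array, the difference was -0.63, and on slide 2 it was 0.10.

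Bmp15 (A_52_P386639, NM_009757, chromosome X from 4788993 to 4789052), the close relative of Gdf9, had log2 signals between -8.54 and -6.88. In wild type they ran from -8.54 to -6.88 and in VRK1-deficient testes from -8.03 to -7.44. The highest was that of wild type replicate 1, at a processed intensity of 5.67, and it was not well above background. No fold is given for it.

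Oosp1 encodes an oocyte-secreted protein, and its 2 probes share 50 of 60 bases. Probe A_51_P205042 (NM_133353, chromosome 19 from 11347806 to 11347865) reached -4.01 on wild type replicate 1 and lay between -8.27 and -7.37 on the other 7 arrays. The overlapping probe A_52_P195135 (chromosome 19 from 11347796 to 11347855) gave -4.20 and -8.32 to -7.42. Both were well above background on wild type replicate 1 and on no other array. The processed intensity of A_51_P205042 was 41.6 there and between 2.75 and 4.22 elsewhere.

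Nlrp14, a member of the NLR family known from germ cells of both sexes, was detected on all 8 arrays. Its probe (A_51_P371355, NM_001002894, chromosome 7 from 103093907 to 103093966) had log2 signals of -2.56, -3.22, -2.20 and -2.32 on wild type replicates 1 to 4. Those on the VRK1-deficient replicates were -4.79, -3.46, -3.53 and -4.46. The arrays did not overlap, and wild type replicate 2 came closest to the VRK1-deficient ones. The difference of -1.48 was the same without wild type replicate 1, with -1.23 on slide 1 and -1.73 on slide 2. Its processed intensity was 113, 91.5, 139.6 and 152 in wild type and 26.1, 67.8, 49.4 and 24.9 in VRK1-deficient testes. In the study it was chosen on these samples as a gene lower in the mutant, so its direction is not independent evidence.

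Of the 8 member probes detected on 4 or more arrays, 6 had every VRK1-deficient array below every wild type array, namely those of Nobox, Lhx8, Zp3 and Nlrp14. This was so for 7.31% of all 26962 tested probes. Without wild type replicate 1 the Figla probe joined them, which made 7 of 8, against 19.5% of all tested probes. Nothing is read from these counts, because the members were chosen on this contrast. The Figla probe passed the detection filter through the wild type arrays and 2 of the VRK1-deficient ones.

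The genes therefore differed in what wild type replicate 1 did. On that array Figla, Nobox and both Lhx8 probes were the lowest of the wild type group. Both Zp3 probes were slightly higher there than on the other wild type arrays, and Nlrp14 lay within their range. Gdf9, Zp2 and Oosp1 were higher there than on any other array. Bmp15 is not placed, since it was not well above background on any array.

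Within the VRK1-deficient group, replicate 1 was low. All 8 member probes detected on 4 or more arrays, which cover 6 genes, had their lowest log2 signal of that group on replicate 1. Figla and the second Lhx8 probe were not well above background there. In processed intensity, which is not scaled between arrays, Nlrp14 and Gdf9 were instead lowest on replicate 4. Nlrp14 gave 24.9 there against 26.1 on replicate 1, and Gdf9 125 against 149. Over all 26962 tested probes, the lowest VRK1-deficient signal was on replicate 1 for 22.6%, on replicate 2 for 24.4%, on replicate 3 for 25% and on replicate 4 for 28%. The summed germ cell markers given below were lowest on replicate 1 as well. This was looked at after the values were seen.

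The differences of the 2 Lhx8 probes were -2.23 and -2.16 (standard errors 0.45 and 0.51) and those of Zp3 -1.90 and -1.73 (0.23 and 0.20). Figla had -1.61 (0.66), Nlrp14 -1.48 (0.34), Nobox -1.46 (0.36) and Gdf9 -0.27 (0.35). Neighbours in this order were closer than the larger of their standard errors, except Gdf9, which stood apart from the rest. The order moved with the background handling. With the normexp background the first Lhx8 probe had the largest difference (-1.45), followed by Zp3 (-1.275 and -1.14), Nobox (-0.85), the second Lhx8 probe (-0.71), Nlrp14 (-0.62), Figla (-0.39) and Gdf9 (-0.12). The second Lhx8 probe and Figla had 1 and 2 arrays that were not well above background, and the cause of this change was not tested. As the log2 ratio of arithmetic means, the values were -2.30 and -2.27 for Lhx8, -1.85 and -1.70 for Zp3, -1.77 for Figla, -1.55 for Nobox, -1.42 for Nlrp14 and -0.47 for Gdf9. Without scaling between arrays each difference was lower by 0.18, which is the shift of all probes.

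How often an array stands alone like this was counted for each array, with a threshold chosen after the values were seen. On wild type replicate 1, 79 of 27198 probes well above background (0.29%) lay more than 1 above the highest of the other 7 arrays on the log2 scale. These included 4 of the 13 member probes, for Zp2, Oosp1 (2 probes) and Gdf9. The count of such probes was 37 to 123 on the other 7 arrays, and none of these held a member probe.

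Other genes of the oocyte, on lists chosen with earlier results of these data known, were looked at in the same way. Of 54 such genes with a probe, 32 were well above background on wild type replicate 1, and 5 of these lay more than 1 above the highest of the other arrays. They were Padi6 and Khdc3, of the maternal effect genes, and H1f8, Oog1 and Oas1d, of the growth and maturation genes. With the same count on each other array, 1 gene was found on VRK1-deficient replicate 4 (Mos, which was well above background there alone) and none on the remaining 6 arrays.

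Padi6 encodes a peptidylarginine deiminase of the oocyte's cytoplasmic lattices. Its probe A_51_P448094 had a log2 signal of -0.55 on wild type replicate 1 and of -7.21 to -5.85 on the other arrays. H1f8 encodes the linker histone of the oocyte, and its probe A_51_P178815 had a signal of -0.89 on wild type replicate 1 and of -3.94 to -3.11 on the others.

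**Figure D2:**
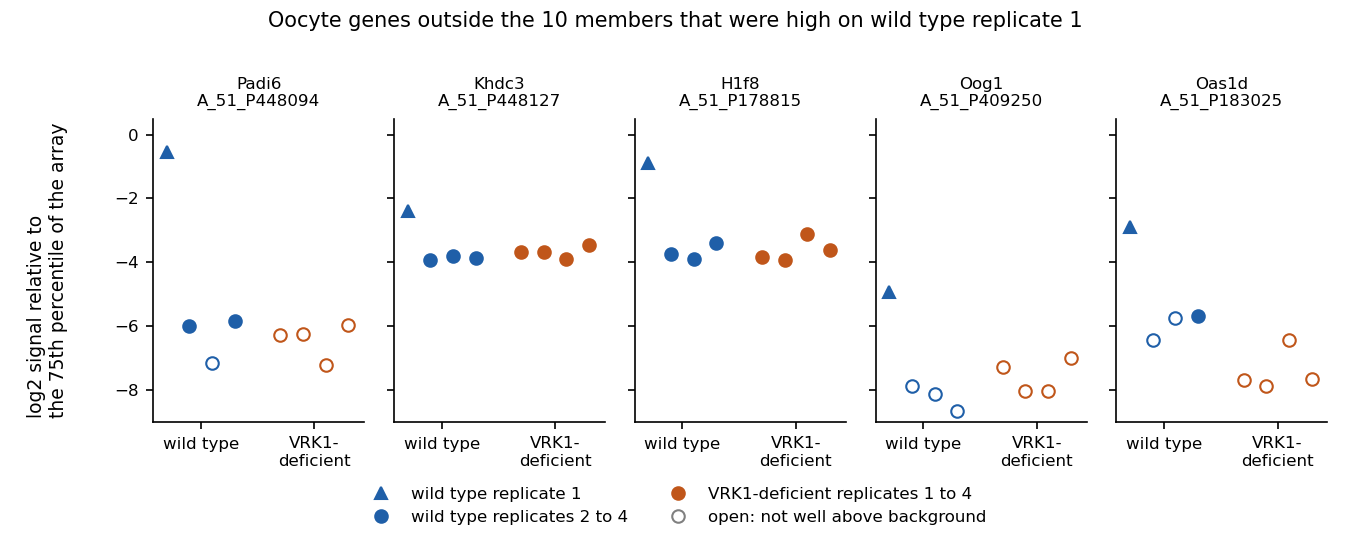
Each panel plots the log2 signal (relative to the array's 75th percentile) of 1 of the 5 oocyte genes outside the 10 members that lay more than 1 above all other arrays on wild type replicate 1 (triangle). Circles are the other arrays, blue for wild type and orange for VRK1-deficient, and open symbols were not well above background. Padi6 was at -0.55 on wild type replicate 1 and at -5.85 or below on the other arrays.

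Markers of granulosa cells, which surround the oocyte, were set beside these values. All 7 had a probe, and 5 of them (Fst, Wnt4, Rspo1, Inhbb and Amhr2) were well above background on all 8 arrays. Of the defining markers, Cyp19a1 was not well above background on any array. Foxl2 was so on wild type replicate 1 alone, with a log2 signal of -5.40 there and of -5.90 to -5.29 on the VRK1-deficient arrays. The summed level of the list, in units of the 75th percentile, was 146, 108, 107 and 89.7 on wild type replicates 1 to 4 and 135, 119, 102 and 123 on the VRK1-deficient ones. The probe of Amhr2 was the largest term of this sum. Limma called none of the 5 tested genes, with 1 lower (Rspo1, which had the smallest p) and 1 higher at an unadjusted p under 0.05 (14.8% and 14.1% of all tested probes) and the same counts by the methods' t-test, and without wild type replicate 1 it called 0 lower and 2 higher. No gene of the list lay more than 1 above the other arrays on wild type replicate 1, and the part of these cells in the result was not tested.

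Summed over each list, germ cell markers were low on the same arrays as Figla, Nobox and Lhx8. Single markers departed from this. Spo11 (A_51_P290542) had its highest signal of all 8 arrays on wild type replicate 1 (-3.07). Dmrt1 and Gfra1 had their lowest wild type signal on replicate 3. The summed level of the 8 pan germ cell markers was 36.4, 70.6, 93.6 and 92.2 on wild type replicates 1 to 4, with the probe of Tex101 as the largest term. On VRK1-deficient replicates 1 to 4 it was 27.0, 43.9, 42.8 and 31.9, so wild type replicate 1 lay within the VRK1-deficient range. All 8 markers had a negative difference, with a median of -1.01, and of -1.31 without wild type replicate 1. The 8 spermatocyte markers summed to 7.82, 18.0, 25.2 and 24.3 in wild type and to 4.999, 8.605, 8.19 and 6.34 in VRK1-deficient testes (largest term Smc1b, median difference -1.27). The 6 measured spermatogonia markers summed to 67.4, 113, 159 and 131 and to 40.5, 70.4, 69.5 and 52.5 (largest term Uchl1, median difference -0.80). Of these 6, 5 had a negative difference. Gfra1, named after its values were seen, was higher by 0.54 with no overlap of the arrays (limma adjusted p = 0.0776, or 0.0444 without wild type replicate 1). Its other probe, A_52_P311022, was higher by 0.34 and its arrays overlapped (limma adjusted p = 0.216, or 0.0658 without wild type replicate 1). Over all tested probes the median difference was 0.04. The part of germ cell content in the values of Figla, Nobox, Lhx8, Zp3 and Nlrp14 was not tested.

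At an adjusted p under 0.05, limma called 535 of 26962 probes (1.98%) as lower in VRK1-deficient testes and 451 (1.67%) as higher. At an unadjusted p under 0.05 limma gave 14.8% lower and 14.1% higher, and the methods' t-test gave 13% and 13.3%. At an adjusted p under 0.05, limma without wild type replicate 1 called 14.7% lower and 13.7% higher. Counts of each list are to be read beside these shares of all tested probes. Of the germ cell markers, Tdrd1, Sall4, Sycp2 and Mei1 were called, all lower. The study lists Sycp2 and Mei1 as lower on these arrays, and of the markers not called also Dazl, Rnf17, Stra8 and Smc1b. The direction of these genes is not independent evidence, and they are part of the counts, sums and medians of the germ cell lists. With slide as a block limma called 1 germ cell marker, of the spermatocyte list. Without wild type replicate 1, limma called 8 of 8 pan germ cell markers and 7 of 8 spermatocyte markers as lower, and of the spermatogonia markers 4 as lower and 1 (Gfra1) as higher, where it called 14.7% of all tested probes lower and 13.7% higher. With any of the remaining arrays left out singly it called 0 of these lists, where it called only 3 to 68 of all 26962 tested probes. The 10 Sertoli cell markers (largest term Dhh) summed to 184, 132, 124 and 120 in wild type and to 199, 167, 164 and 190 in VRK1-deficient testes, with a median difference of 0.42. None of them was called by limma, while 2 lower and 5 higher had an unadjusted p under 0.05 (14.8% and 14.1% of all tested probes), and the methods' t-test gave 1 lower and 2 higher (13% and 13.3%). The gene with the smallest p was Fshr, with a difference of 1.09 (limma adjusted p = 0.0598), and without wild type replicate 1 limma called 1 Sertoli cell marker lower and 6 higher. The 6 Leydig cell, 5 peritubular cell and 5 macrophage markers were detected on all 8 arrays, and 1 of them was called, Cnn1 of the peritubular list (-0.99, limma adjusted p = 0.0446). Leaving out wild type replicate 1 gave Cnn1 a limma adjusted p of 0.00698, and leaving out any other array gave 0.0662 to 0.147. Within slide 1 no gene of the list was called, while within slide 2, and with slide as a block, 1 was called lower. At an unadjusted p under 0.05, limma gave 2 higher for the Leydig list (the smallest p being that of Lhcgr) and 0 for the macrophage list (Lyz2), and so did the methods' t-test. Called without wild type replicate 1 were 2 higher of the Leydig list, 1 lower of the peritubular list and 0 of the macrophage list.

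The other transcription factors of the oocyte had 11 genes on their list, 9 with a probe and 4 tested, and 4 were not well above background on any array. All 4 tested genes had a negative difference, with a median of -0.49, and 1 was called, or 2 (both lower) without wild type replicate 1. The one called on all arrays was Nr6a1, an orphan nuclear receptor of germ cells. Its log2 signal (A_52_P122664) was -0.59, 0.22, 0.23 and 0.17 on wild type replicates 1 to 4 and -1.22, -0.70, -0.83 and -0.89 on VRK1-deficient replicates 1 to 4. Wild type replicate 1 was the lowest of its group and the arrays did not overlap. The difference for Nr6a1 was -0.92 with a standard error of 0.21 (limma adjusted p = 0.0492). Leaving out wild type replicate 1 gave a limma adjusted p of 0.00344, and leaving out any other array gave 0.0796 to 0.151. With slide as a block it was 0.0510, with quantile normalization 0.0519 and with no filter on dim probes 0.0930, so the call was lost under each. The highest value over all alternatives was 0.508, within slide 1.

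Of the growth and maturation genes, 22 of 25 had a probe and 10 were tested, and Cpeb1, an RNA-binding regulator of translation in germ cells, was the one called. Its log2 signal (A_52_P462296) was -0.83, 0.12, -0.34 and 0.33 on wild type replicates 1 to 4 and -1.72, -1.29, -1.36 and -1.64 on VRK1-deficient replicates 1 to 4. The difference was -1.33 with a standard error of 0.24 (limma adjusted p = 0.0423). Leaving out wild type replicate 1 again gave a limma adjusted p of 0.00344, and leaving out any other array gave 0.0620 to 0.145. With slide as a block it was 0.0488, and with no filter on dim probes 0.0801. On slide 1 alone it was 0.500, the highest over all alternatives. The study chose it on these arrays, so its direction is not independent evidence. The list had 7 negative and 3 positive differences, with a median of -0.44. Without wild type replicate 1 the median was -0.15, and 3 genes were called lower and 1 higher.

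The maternal effect genes divided. Of 11 genes 8 were tested, 5 with a negative and 3 with a positive difference (median -0.04, or 0.24 without wild type replicate 1), and limma called none, or 2 lower and 3 higher without that array (14.7% and 13.7% of all tested probes). At an unadjusted p under 0.05 limma gave 2 lower and 2 higher (14.8% and 14.1%), and the methods' t-test 2 lower and 1 higher. Dppa3, a factor of early germ cells and of the egg, had the smallest p, with a difference of -2.34 (limma adjusted p = 0.0505). That difference includes VRK1-deficient replicate 1, on which Dppa3 was not well above background. Its log2 signal was -3.71, -2.59, -1.45 and -2.25 on wild type replicates 1 to 4 and -6.13, -4.20, -4.09 and -4.94 on VRK1-deficient replicates 1 to 4. Dppa3 was thus lowest on wild type replicate 1 within its group, as were Figla, Nobox and Lhx8.

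Nlrp14 was set beside the rest of its family, of which 13 of 16 genes had a probe, 4 were tested and 7 were not well above background on any array. Limma called none, with 1 lower and 1 higher at an unadjusted p under 0.05 and the same counts by the methods' t-test. Limma called 1 lower and 1 higher without wild type replicate 1. By the probe with each gene's highest mean signal, Nlrp4c had the smallest p, with a difference of -0.96 (limma adjusted p = 0.0773). Its log2 signals were 1.62, 2.57, 2.89 and 2.75 in wild type against 1.25, 1.87, 1.72 and 1.17 in VRK1-deficient testes. Nlrp10 went the other way, higher by 0.39 with its brightest probe (limma adjusted p = 0.102). Its other probe, A_52_P590625, was higher by 0.71 and had a smaller p than Nlrp4c (limma adjusted p = 0.0517). On neither Nlrp10 probe did the arrays overlap.

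Figla acts as a dimer with E proteins, which Id proteins bind in turn. All 7 of these genes were detected on all 8 arrays. By the probe with each gene's highest mean signal, 1 had a negative and 6 a positive difference (median 0.37). For Tcf12 that probe was at 0.02, while its other probes were at -0.45, -0.29, -0.15 and 0.27, so its direction depended on the probe. Limma called none, with 1 lower and 3 higher at an unadjusted p under 0.05 (14.8% and 14.1% of all tested probes) and 1 in each direction by the methods' t-test. Limma called 4 of the 7 without wild type replicate 1, with 1 lower and 3 higher (14.7% and 13.7% of all tested probes). With any other array left out it called 0 of them, where it called only 3 to 68 of all 26962 tested probes. In the main fit Tcf4 had the smallest p of the counted probes, with a difference of 0.39 (limma adjusted p = 0.0806). A probe of Id1 outside the count, A_52_P533809, had a smaller p, with a difference of 0.60 (limma adjusted p = 0.0739). Of the 9 receptors and SMADs through which GDF9 and BMP15 signal, 8 were tested, and Bmpr1b was not well above background on any array. Limma called none of the 8, with 0 at an unadjusted p under 0.05 and 0 by the methods' t-test, and without wild type replicate 1 it called 1 lower. By these probes, each with its gene's highest mean signal, the median difference was 0.11. Smad2 had the smallest p among them, with a difference of -0.31 (limma adjusted p = 0.217). Other probes of Tgfbr1 (-1.38), Smad5 (-0.79), Smad1 (-0.49) and Smad3 (-0.29) were lower at an unadjusted limma p under 0.05, as were 14.8% of all tested probes. This Tgfbr1 probe was not well above background on VRK1-deficient replicates 1 and 4. A further Smad5 probe was higher (0.53) at the same threshold, as were 14.1% of all tested probes.

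Over the 4 oocyte lists together, 26 genes were tested, and 2 were lower and 0 higher at a limma adjusted p under 0.05. At an unadjusted p under 0.05 these were 7 and 4, beside 14.8% and 14.1% of all tested probes, and 6 and 3 by the methods' t-test, beside 13% and 13.3%. Without wild type replicate 1, limma called 8 lower and 5 higher, where 14.7% of all tested probes were called lower and 13.7% higher. When any other single array was left out, it called 0 of these genes, where it called only 3 to 68 of all 26962 tested probes.

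For the member probes detected on all 8 arrays, the probes most alike over the 8 arrays were sought among 24371 probes, as a description with no p. All of them share the same 8 arrays, so wild type replicate 1 shapes each likeness. The first Lhx8 probe was most like Lmo1 (Pearson r = 0.998), Hrh1 (r = 0.998) and Cecr2 (r = 0.997). Nobox was most like Nkd1 (r = 0.997), Pgm2l1 (r = 0.994) and Radil (r = 0.994). Zp3 (A_52_P42762) was most like Card10 (r = 0.985), Brwd1 (r = 0.981) and Dcaf8l (r = 0.979), and the other Zp3 probe was most like Brwd1, Myrip and Dcaf8l (r = 0.974 to 0.978). Nlrp14 was most like Gml2 (r = 0.971), LOC625599 (r = 0.965) and 3830417A13Rik (r = 0.963). Gdf9, whose pattern is set by wild type replicate 1, was most like Wasf2 (r = 0.966), H1f8 (r = 0.956) and Slc7a3 (r = 0.956).

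Promoter sequences were taken from the RefSeq table of build GRCm38.p6, in which 6 of the 10 members were matched: Figla, Nobox, Lhx8, Zp3, Bmp15 and Oosp1. Zp1, Zp2, Gdf9 and Nlrp14 were not matched. The 250 bases before the start were searched on both strands for the E-box CANNTG, to which basic helix-loop-helix factors such as FIGLA bind. TAATTG and TAATTA, given for NOBOX, and TGATTG, given for LHX8, were searched as well. TAATTG and TAATTA differ in their last letter, and a match may overlap an E-box.

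Oosp1 held 5 E-boxes in this window, Zp3 held 3, Figla and Nobox held 2 each, Bmp15 held 1 and Lhx8 held 0. Of all 32851 promoters in the table, 66.2% held at least 1 E-box, 12.2% held 3 or more and 1.15% held 5 or more. Bmp15 was the one matched member with TAATTA, which 4.84% of promoters held, and with TGATTG, which 12.7% held. TAATTG, held by 7.17% of promoters, was in none of the 6 windows. A match is a description of letters and not of a bound site.

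The windows of Zp3, Oosp1 and Lhx8 are printed because these genes show the 3 patterns across the arrays: lower in VRK1-deficient testes with wild type replicate 1 at the wild type level, high on wild type replicate 1 alone, and lower in VRK1-deficient testes with wild type replicate 1 below its group. E-boxes are in capitals. Zp3 is read from the plus strand at chr5:135979855-135980104, Oosp1 from the minus strand at chr19:11691052-11691301 and Lhx8 from the minus strand at chr3:154330561-154330810.
Zp3: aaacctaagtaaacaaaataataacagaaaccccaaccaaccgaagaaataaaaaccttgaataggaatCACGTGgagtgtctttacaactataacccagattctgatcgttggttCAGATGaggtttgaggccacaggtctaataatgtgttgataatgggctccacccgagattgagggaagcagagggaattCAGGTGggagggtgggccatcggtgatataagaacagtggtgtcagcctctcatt
Oosp1: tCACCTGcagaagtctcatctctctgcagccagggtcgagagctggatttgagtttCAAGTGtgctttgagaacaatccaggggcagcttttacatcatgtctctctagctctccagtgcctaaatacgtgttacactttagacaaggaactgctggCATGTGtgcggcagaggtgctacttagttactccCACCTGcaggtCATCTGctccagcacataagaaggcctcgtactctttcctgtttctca
Lhx8: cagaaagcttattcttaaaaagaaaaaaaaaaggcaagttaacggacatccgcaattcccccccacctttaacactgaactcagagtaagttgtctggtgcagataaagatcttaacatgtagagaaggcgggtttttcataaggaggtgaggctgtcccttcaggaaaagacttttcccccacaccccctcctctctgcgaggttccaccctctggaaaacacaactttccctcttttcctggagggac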

How the data were processed

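Per the submitters' processing notes, Agilent Feature Extraction 9.5.3.1 read the arrays, and the authors deposited its processed signals as linear intensity values with the background subtracted and not scaled between arrays. Outlier spots were left out, spots of a probe were averaged, and the log2 of each array's 75th percentile was subtracted from the log2 of the deposited intensity. Only probes that were well above background on 4 or more of the 8 arrays entered limma 3.58.1 (lmFit and eBayes, R 4.3.3), with Benjamini-Hochberg adjustment over all 26962 of them and calls at an adjusted p under 0.05. Tables and figures were made with Python 3.11.15, pandas 2.3.3, numpy 2.4.6 and matplotlib 3.10.9. The fit was tested on simulated data.

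Differences are VRK1-deficient minus wild type. Symbols came through accession, symbol or synonym in a RefSeq gene table, and 8455 probes without such a match kept the name in the array files. A gene of a list was its probe with the highest mean signal. Named were all members, the called genes of each other list (or the gene with the smallest p), and the 3 most alike genes. The members and lists were chosen with earlier results of these data known. Positions of probes are in build mm7, as in the array files. The summed level of a list is the sum of its genes' signals divided by the 75th percentile. Alternatives were other scalings, background corrections, filters and variance models, slide and replicate as blocks, each slide alone, each array left out, other detection flags, and the Student test of the methods (equal variances, p of at most 0.05), called the methods' t-test. Labels call the samples biological replicates.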

Additional observations from a re-analysis of the deposited data

Results flagged for a closer look

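Each group of 4 arrays was examined for an array far from the rest, for the member probes and the genes of the oocyte lists. In 10 of 80 groups the gap of the outermost array to its neighbour, divided by the range of the group, exceeded Dixon's limit for 4 values. The limit serves only to pick groups out, and the count is no test. The members were chosen on these arrays, the lists with earlier results known, and the groups share arrays. The count also includes groups with arrays not well above background, which are named below. In 7 of the 10 the array was wild type replicate 1, high in 6 of them.

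Of the members, Oosp1 (A_52_P195135) was picked out in wild type (0.832). Only replicate 1, at -4.20, was well above background there, so for this member the ratio sets a signal against background and is no test. Among the other genes, replicate 1 was the high array in wild type for Khdc3 (0.912), Npm2 (0.933), Zar1 (0.917), H1f8 (0.831) and Bcl2l10 (0.854). Npm2 was at -0.45 there against -1.60 on the nearest wild type array, and Zar1 at -2.70 against -4.66. For Nr6a1 (0.930) replicate 1 was the low array. Apart from that array, Nlrp12 had a low wild type replicate 3 (0.842, all 4 arrays between -5.83 and -5.48). In VRK1-deficient testes Zbed3 had a high replicate 1 (0.852) and Mos a high replicate 4 (0.857, at -3.36 against -6.60 on the nearest array). Wild type replicate 1 for Bcl2l10 and VRK1-deficient replicate 4 for Mos were likewise the one array of their group well above background, and 2 of the 4 wild type arrays of Nlrp12 were not above it.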

How the results depend on the processing

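The number of called probes moved with single arrays more than with the scaling. Against 986 in the main fit it was 7659 without wild type replicate 1. With another array left out it was between 3 (without wild type replicate 2) and 68 (without wild type replicate 3). The number was 17 with no filter on dim probes, 641 with slide as a block, 3 within slide 1 and 1059 within slide 2. Quantile normalization gave 793, the normexp background 1375, and probes well above background on all 8 arrays 1389. An intensity trend with robust variances gave 1916, and the methods' t-test 7068, or 162 after its adjustment. Without scaling between arrays 852 of 916 calls were lower, against 535 of 986, and the median difference of all tested probes shifted by -0.18. For the oocyte lists the main fit called 2 genes, all alternatives counted here called between 0 and 13, and single arrays left out gave 0 (each of 7 arrays) to 13 (without wild type replicate 1). The count was 1 with quantile normalization, 4 with a normexp background, 0 with no filter, 0 within slide 1, 5 within slide 2, and 0 or 9 by the methods' t-test with and without adjustment. The causes were not tested.

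With the replicate block, 2280 probes and 6 oocyte genes were called. The deviations of samples with the same number had correlations of 0.47, 0.07, 0.19 and -0.14, so the numbers were not taken to pair the samples.

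The 6 detected genes were 6 by the flag for a positive and significant signal and 5 on all 8 arrays. Member differences kept their direction under all 16 alternatives for Figla, Nobox, Lhx8, Zp3 and Nlrp14. The normexp background, which adds an offset of 50, brought all member differences nearer 0: Figla to -0.39, Nobox to -0.85, the Lhx8 probes to -1.45 and -0.71, the Zp3 probes to -1.14 and -1.275, Nlrp14 to -0.62 and Gdf9 to -0.12. The Gdf9 difference ranged from -0.63 to 0.14. Signals near background, as for Zp2, Oosp1 and Bmp15, limit what the arrays can show. The threshold of 1 was chosen after seeing the data. Leaving out each array singly was planned, but the choice to print each list's counts without wild type replicate 1 followed the data.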

Other observations

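The probes that stood furthest above the other arrays on wild type replicate 1 were looked up after their values were seen. The first was 8030476L19Rik (A_52_P794570), with a log2 signal of -1.86 there and of -8.56 to -7.71 on the other 7 arrays, followed by Padi6 and Khdc1b (A_51_P196673, -3.16 against -8.31 to -7.31). Both Oosp1 probes and 1 Zp2 probe were among the first 12. The list also held Chac1 (A_51_P134812), an enzyme of glutathione breakdown, with a log2 signal of 0.67 on wild type replicate 1 and of -3.72 to -2.29 elsewhere. Slc7a3 (A_51_P275016), a transporter of cationic amino acids, was not among the first 12. It was at -0.85 on wild type replicate 1 and between -3.12 and -2.37 elsewhere. The origin of these signals was not tested.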
